A study of Mus musculus with 2 samples.

Results

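Villus tip enterocytes are the absorptive cells at the end of the crypt-villus axis, and they were defined here by 4 genes, Ada, Nt5e, Slc28a2 and Ly6m. Barcodes were scored when they had more than 500 genes, less than 25% of unique molecular identifiers (UMIs, 1 per captured RNA molecule) on mitochondrially encoded genes and less than 1% on the goblet cell genes Muc2, Tff3 and Zg16. They also had to hold 0 UMIs of Cd3e, Cd3g, Tyrobp, Trpm5, Chgb, Olfm4 and Top2a, which mark T cells, myeloid cells, tuft cells, enteroendocrine cells, stem cells and dividing cells. Each barcode had 4 scores, the share of its UMIs on a list divided by the mean share of that list over all scored barcodes of both libraries. List A (Car4, Plac8, Oat, Krt19) holds early enterocyte genes, list B (Slc5a12, Cubn, Cyp3a11, Slc2a2) mid-villus genes, list C the 4 tip genes and list D Lypd8l, Areg, Bche and Slc51a. A villus tip enterocyte was a barcode whose list C score was the highest of the 4, which gave 1506 members of 5472 scored barcodes and of 21629 barcodes in all.

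The study deposited 2 single-cell libraries of crypt-enriched small intestinal epithelium, 1 from Adipfl/fl mice and 1 from Adipfl/flpVilli-CreT mice. The Adipfl/fl mice carry a floxed adiponectin gene and served as controls, and the Adipfl/flpVilli-CreT mice carry the same floxed alleles with a Cre recombinase that a villin promoter drives in gut epithelial cells, so that other cells keep adiponectin. The mice were young adult male littermates, and each library was a pooled sample of several mice. Dead cells were depleted on magnetic beads before capture. The comparison asks how loss of epithelial adiponectin, a hormone best known from fat tissue that raises fatty acid oxidation through its receptors, changes the cells of the small intestine.

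Adipfl/fl held 404 members among 1912 scored barcodes, and Adipfl/flpVilli-CreT held 1102 among 3560. The members carried 1660920 UMIs in Adipfl/fl and 4372856 in Adipfl/flpVilli-CreT, from whole libraries of 42150623 and 63370798 UMIs. With 1 library per genotype there was no replicate, so no test between genotypes was made and every interval below covers counting error only. The libraries shared 31 barcode sequences, none of them a member in both.

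Adipoq, the gene that the Cre deletes, had 1 UMI in the whole Adipfl/fl library and 0 in the whole Adipfl/flpVilli-CreT library. The members held 0 UMIs of Adipoq in each library, and 3 UMIs, the limit that a count of 0 allows, would be 1.81 counts per 1000000 UMIs (CPM) in Adipfl/fl and 0.686 CPM in Adipfl/flpVilli-CreT. The deletion was therefore not detectable at this depth, and the genotypes are those of the labels. Adipor1, the adiponectin receptor gene linked to AMPK signalling, stood at 67.4 CPM in Adipfl/fl members and 65.9 CPM in Adipfl/flpVilli-CreT members, a ratio of 0.977 (95% interval 0.783 to 1.23). Adipor2, the second receptor gene, stood at 156 and 159 CPM, a ratio of 1.02 (0.880 to 1.18). Neither receptor gene differed between the genotypes beyond counting error. Of the 3 genes of adiponectin and receptor signalling measured against list B enterocytes, 0 were higher and 2 lower past 1.5-fold in the members, against 11.5% and 42.5% of all 4736 genes compared, and 0 passed relative to the median gene.

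Enterocytes are born in the crypt, climb the villus over a few days and are shed from its tip. On the way they change their tasks, from antimicrobial defence near the base through sugar and amino acid uptake in the middle to purine metabolism, lipoprotein export and cell adhesion genes at the tip. The 4 rule genes belong to the last stage. Ada encodes adenosine deaminase, which converts adenosine to inosine, Nt5e encodes CD73, the surface enzyme that makes adenosine from AMP, Slc28a2 encodes a sodium-coupled purine nucleoside transporter, and Ly6m encodes a small membrane-anchored protein of the Ly6 family.

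The levels of the 4 rule genes chose the members and are given as a description. Ada stood at 6198 CPM in Adipfl/fl members and 6614 CPM in Adipfl/flpVilli-CreT members, against 298 and 464 CPM in the list B enterocytes, the barcodes whose mid-villus score was highest. Ly6m stood at 6802 and 7178 CPM in the members and at 147 and 387 CPM in list B enterocytes. Nt5e stood at 1981 and 1641 CPM against 40.6 and 39.5 CPM. The members were thus far above list B enterocytes for each of these genes in each library, which the rule required. Slc28a2 stood at 2878 and 2465 CPM against 122 and 174 CPM. Slc28a2b, a close paralog of Slc28a2 whose reads the counting could split, had 5 and 14 UMIs in the members. Between the genotypes, the levels in members differed by 1.07-fold for Ada (1.04 to 1.09), 1.06-fold for Ly6m (1.03 to 1.08), 0.828-fold for Nt5e (0.795 to 0.864) and 0.856-fold for Slc28a2 (0.828 to 0.886).

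At least 1 UMI of Ada was found in 98.0% of Adipfl/fl members and 98.3% of Adipfl/flpVilli-CreT members, and Ly6m in 94.8% and 98.9%. Nt5e was found in 78.7% and 69.2% of members. After thinning to 2000 UMIs the shares were 97.7% and 97.0% for Ada and 73.4% and 63.1% for Nt5e. Free RNA in the droplets was gauged in the 498 and 699 barcodes with a Cd3e or Cd3g UMI, of which 25.1% and 43.2% held an Ada UMI and 49.0% and 42.8% an Nt5e UMI. T cells can express both of these genes. Median depth was 3759.5 and 3541 UMIs in the members and 5412.5 and 5008 UMIs in the Cd3 barcodes.

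Genes of the villus tip that the rule did not use went mostly with the label. Of 11 such genes written down, 10 were measured against list B enterocytes, and 8 were higher in the members by at least 1.5-fold in each library, as were 11.5% of all 4736 genes compared. Only Ms4a10 was lower, as were 42.5% of all genes, and Junb stayed under 1.5-fold in both libraries. The genes were written down with earlier results of these data known. The rule also chose the members with the same UMIs, so this is a check of the label and no test. Apoa4, the apolipoprotein secreted with chylomicrons, stood at 26580 and 21060 CPM in the members against 10990 and 8396 CPM in list B enterocytes. Krt20, the keratin of mature enterocytes, stood at 4537 and 4709 CPM against 1903 and 2146 CPM. The members thus held more than 2-fold the list B level of both genes in each library. Egfr, the receptor for epidermal growth factor, stood at 152 and 131 CPM against 11.4 CPM in both, a ratio of 13.4 (9.51 to 19.4) and 11.5 (8.83 to 15.2). Klf4, a transcription factor of cells that have stopped dividing, stood at 1344 and 1343 CPM against 709 and 767 CPM. Cdh1, which encodes E-cadherin, Creb3l3, a lipid regulator bound to the endoplasmic reticulum, Fosb and the nuclear RNA Neat1 also passed. Ms4a10 stood at 93.3 and 101 CPM against 266 and 231 CPM, against its place in the list.

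**Figure D1:**
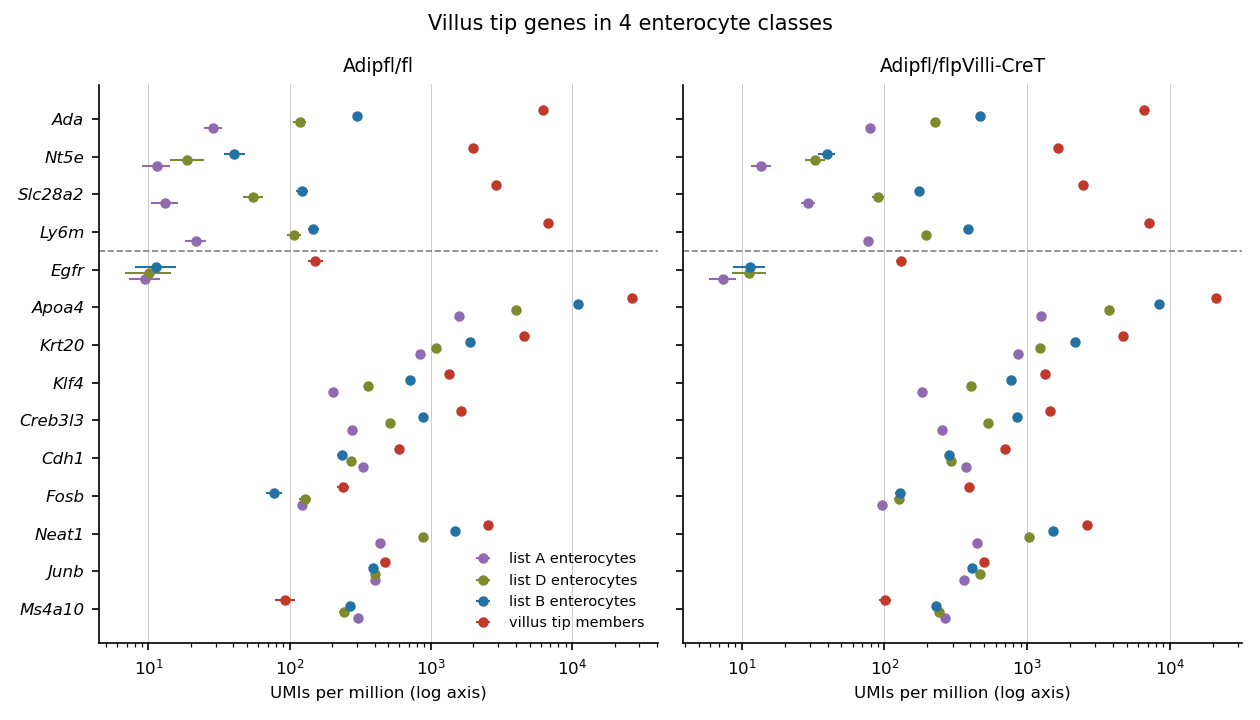
Levels of the 4 rule genes (above the dashed line) and of 10 villus tip genes outside the rule (below it), in CPM on a log axis, in the members and in the enterocytes of lists B, D and A of each library, with exact Poisson 95% intervals. Ada stood at 6198 and 6614 CPM in the members, and Egfr, which the rule did not use, at 152 and 131 CPM against 11.4 CPM in list B enterocytes, while Ms4a10 was lower in the members.

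The members were shallow in genes. After each barcode was thinned to 2000 UMIs, the median number of genes was 726 in Adipfl/fl members and 749 in Adipfl/flpVilli-CreT members, against 863 and 874 in list B, 939 and 947 in list D and 1065 and 1073 in list A enterocytes. Thinning left out 21 and 66 members with fewer UMIs. Only 38 and 45 genes made up 50% of the members' UMIs, where list B enterocytes needed 93 and 112 genes and list A enterocytes 298 and 297. Members thus had the fewest genes and the most uneven UMIs of the 4 classes in both libraries. The median mitochondrial share was 19.9% and 20.1% of UMIs in the members, close to the limit of 25%, and 6.9% and 6.4% in list A enterocytes.

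Membership was clear for most barcodes. The median list C score was 3.18 in Adipfl/fl members and 3.09 in Adipfl/flpVilli-CreT members, at a median of 60.5 and 58 UMIs on the 4 genes. The list C score was less than 2-fold above the next score in 60 Adipfl/fl members (14.9%) and 210 Adipfl/flpVilli-CreT members (19.1%). The next list was the mid-villus list B in 243 and 675 members, list A in 75 and 184, and list D in 50 and 176. Among the 20 barcodes of each library just inside the edge, the list C score was up to 1.38 and 1.07 times the next score, with a median list C score of 1.4 and 1.5. Among the 20 just outside, the highest score was up to 1.31 and 1.07 times the list C score, with a median list C score of 1.05 and 1.21. The class is a range cut from a score and grades into its neighbours at this edge.

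The members held different numbers of the rule genes. After thinning, all 4 rule genes were found in 255 Adipfl/fl members (66.6%) and 603 Adipfl/flpVilli-CreT members (58.2%), 3 of them in 90 and 316, and 2 or fewer in 38 and 117. This number comes from the values that chose the members, and those with the fewest rule genes tend to lie near the other classes by construction, so the levels that follow describe the range within the rule. Egfr stood at 13.2 (1 UMI, interval 0.333 to 73.3), 128 and 216 CPM in Adipfl/fl members with 2 or fewer, 3 and 4 rule genes, and at 55.6, 85.4 and 170 CPM in Adipfl/flpVilli-CreT members. Prdm1, which encodes the repressor Blimp1, stood at 105, 156 and 222 CPM and at 89.7, 144 and 248 CPM. Both genes thus stood highest in the members with all 4 rule genes. Apoa4 followed the same order, at 16450, 21130 and 27310 CPM in Adipfl/fl and 14000, 17350 and 23440 CPM in Adipfl/flpVilli-CreT. The opposite order was seen for Maf, a transcription factor gene, at 487, 161 and 84.3 CPM in Adipfl/fl and 227, 171 and 86.2 CPM in Adipfl/flpVilli-CreT. Anpep, a brush border peptidase gene, stood at 1197, 867 and 543 CPM and at 1829, 1509 and 797 CPM. Fabp1, which encodes a fatty acid binding protein, stood at 1645, 683 and 459 CPM and at 940, 658 and 417 CPM. These 3 genes were lowest where all 4 rule genes were found. Krt20 and Klf4 kept no such order in Adipfl/flpVilli-CreT, where Krt20 stood at 4679, 4543 and 4696 CPM. The median number of genes after thinning was 797, 749 and 707 in these bins of Adipfl/fl and 803, 771 and 720 in those of Adipfl/flpVilli-CreT, and its part in the levels was not tested.

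**Figure D2:**
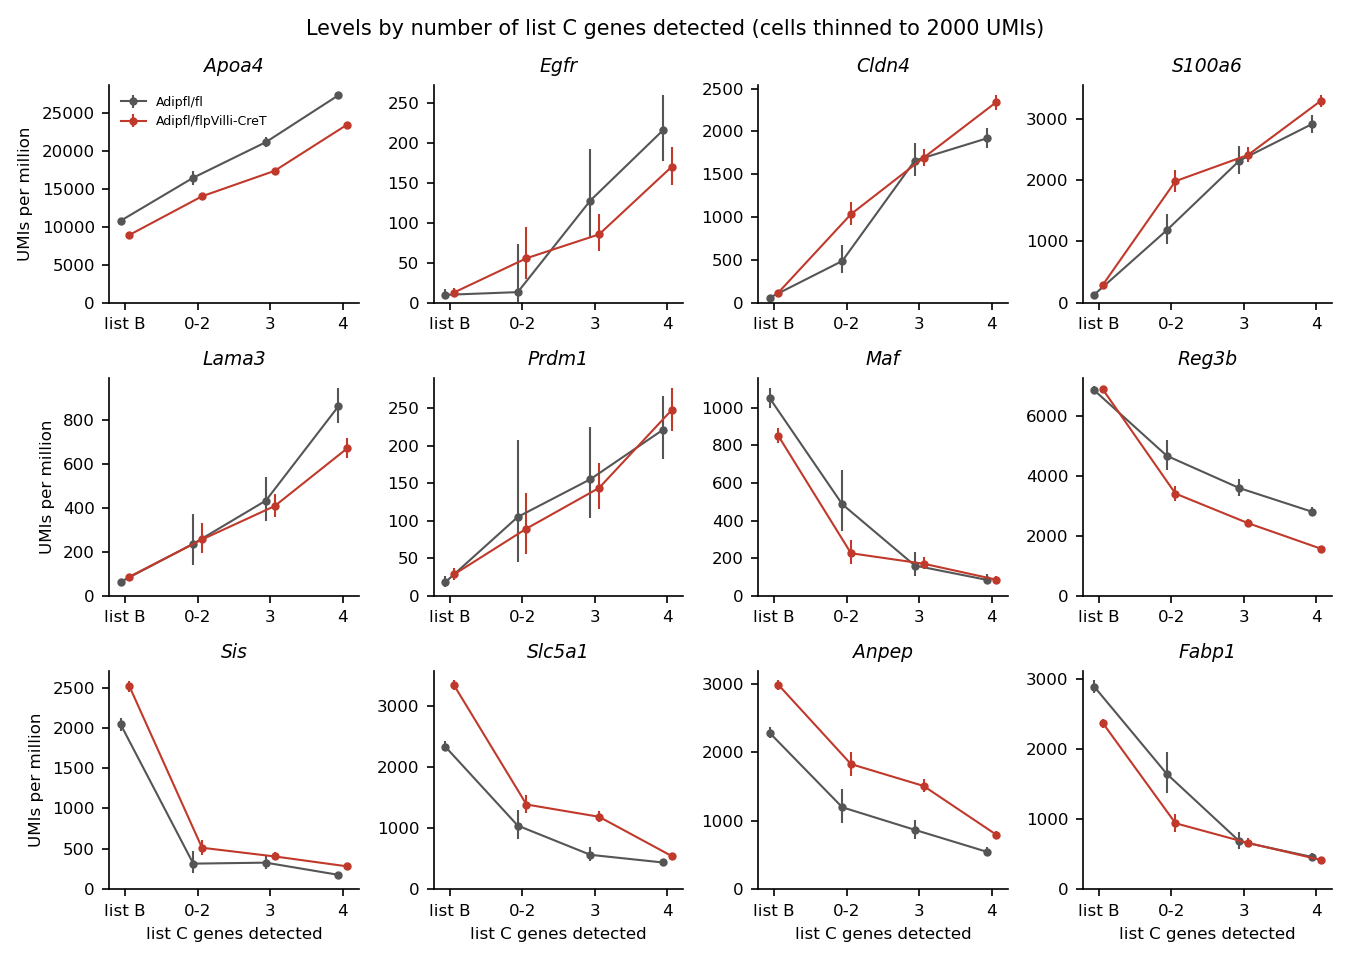
CPM (linear axes from 0) of 12 genes outside the rule in list B enterocytes and in members with 0 to 2, 3 or 4 of the list C genes found, each barcode thinned to 2000 UMIs, with 1 line per library and exact Poisson 95% intervals. Apoa4, Egfr, Cldn4, S100a6, Lama3 and Prdm1 stood highest in the members with all 4 list C genes, and Maf, Reg3b, Sis, Slc5a1, Anpep and Fabp1 stood lowest there, with Maf at 84.3 and 86.2 CPM.

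Compared with list B enterocytes, the members were higher by at least 1.5-fold in each library for 547 of 4736 genes (11.5%) and lower for 2015 (42.5%), and 3 genes (0.0633%), the antibody genes Jchain, Igkc and Igha, passed in opposite directions. The median gene had a log2 fold of -0.53 in Adipfl/fl and -0.54 in Adipfl/flpVilli-CreT. The 10 most abundant genes held 35.9% and 33.7% of the members' UMIs and 29.6% and 26.6% of those of list B enterocytes. Relative to the median gene, 1093 genes (23.1%) were higher and 972 (20.5%) lower. Counts of list genes below are given on both scales, first in CPM and then relative to the median gene. The rule used these cells' own UMIs, so all of this is description.

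Cldn4 and Marcksl1 were among the 12 genes with the largest folds over list B enterocytes. Cldn4, which encodes the tight junction protein claudin 4, stood at 1704 CPM in Adipfl/fl members and 2030 CPM in Adipfl/flpVilli-CreT members against 59.8 and 118 CPM, a ratio of 28.5 (24.7 to 33.1) and 17.2 (15.9 to 18.7). Marcksl1, which encodes an actin-regulating membrane protein, stood at 185 and 195 CPM against 3.29 and 5.87 CPM, a ratio of 56.2 (31.0 to 114) and 33.3 (23.4 to 48.9). Marcksl1 stood under 6 CPM in the list B enterocytes of both libraries, while Cldn4 was present there at a low level. S100a6, a calcium-binding protein gene, stood at 2856 and 3036 CPM against 124 and 258 CPM. Gprc5a, an orphan receptor gene, stood at 416 and 480 CPM against 21.8 and 31.2 CPM. Acsl3, which encodes an acyl-CoA synthetase, stood at 387 and 259 CPM against 31.7 and 14.9 CPM. In each of these 3 genes the members were above list B enterocytes by more than 10-fold in both libraries. Utp14b, Dusp10, Pnpla7, Egfr, St3gal1 and Tubb2a were in this rank too, at 10.3-fold or more in each library. Lama3, a laminin chain gene chosen after its values were seen, stood at 237, 433 and 863 CPM in Adipfl/fl members and 256, 408 and 671 CPM in Adipfl/flpVilli-CreT members with 2 or fewer, 3 and 4 rule genes.

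The 250 bases upstream of the annotated Cldn4 start are shown because Cldn4 led the tight junction genes and several AP-1 subunit genes were higher in the members as well. The sequence is from RefSeq (GRCm38.p6, the assembly called mm10), chr5:134946935-134947184, read 5′ to 3′ on the minus strand, with both matches to the AP-1 letters TGANTCA in capitals.
Cldn4: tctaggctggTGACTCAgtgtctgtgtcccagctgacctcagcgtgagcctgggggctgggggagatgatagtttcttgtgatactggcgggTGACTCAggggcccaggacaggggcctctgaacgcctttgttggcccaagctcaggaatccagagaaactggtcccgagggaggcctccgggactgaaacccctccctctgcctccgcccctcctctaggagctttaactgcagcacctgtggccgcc
Both strands were searched for these letters, which are the same on either strand apart from the middle base. At least 1 match was found in 6.75% of 32851 RefSeq windows of the same length, and 2 or more in 0.338%. Of the 12 genes with the largest folds above list B enterocytes, 9 had a window in the table and 1, Cldn4, had a match, and of the 12 with the largest folds below, 8 had a window and 1, Nlrp6, had a match. A match is a description of these letters and not a site of binding.

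Maob, Angptl4 and Ppargc1a were among the 12 genes with the largest folds below list B enterocytes. Maob, which encodes monoamine oxidase B, stood at 3.61 CPM in Adipfl/fl members and 4.8 CPM in Adipfl/flpVilli-CreT members against 59.2 and 87.8 CPM. Ppargc1a, a coactivator of mitochondrial genes, stood at 8.43 and 6.86 CPM against 107 and 99.1 CPM. Angptl4, an inhibitor of lipoprotein lipase, stood at 2.41 and 7.55 CPM against 53.2 and 105 CPM. The members were below list B enterocytes by more than 10-fold for each of these 3 genes. Slc5a4b of the sodium-glucose transporter family, the amino acid transporter gene Slc7a8, the retinol dehydrogenase gene Rdh7, the inflammasome sensor gene Nlrp6, the urea cycle gene Otc, Prkg2, Cbr1, Aqp11 and Gm44974 made up the rest of this rank.

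**Figure D3:**
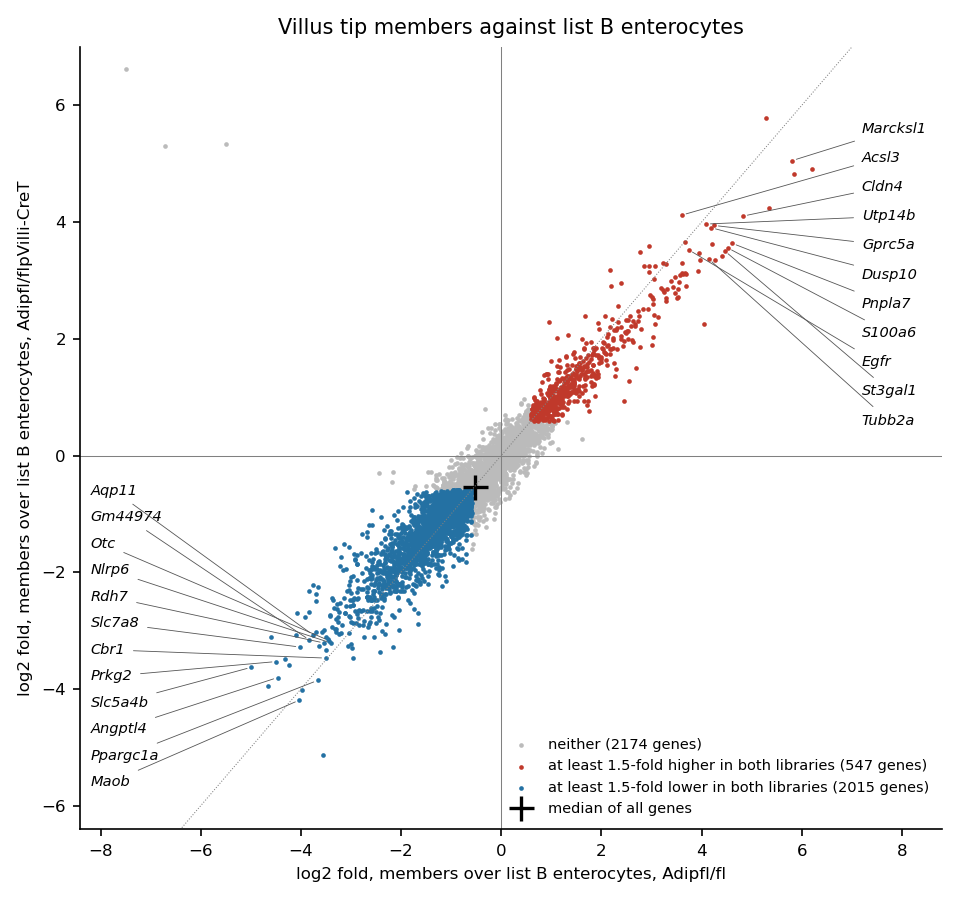
Log2 fold of the members over list B enterocytes in Adipfl/fl (horizontal) and Adipfl/flpVilli-CreT (vertical), 1 point per gene of the 4736 compared, with named genes of each direction labelled, a dotted line where both libraries are equal and a cross at the median gene. Genes past 1.5-fold in both libraries lie to the upper right (547) and lower left (2015), the cross lies at -0.53 and -0.54, the points at the upper left are Jchain, Igkc and Igha, and most other outlying points without a label are genes under the minimum of 50 CPM for naming.

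Adhesion and tight junction genes were higher in the members as a group. Of 19 measured, 12 were higher and 2 lower past 1.5-fold (16 and 0 relative to the median gene), with a median log2 fold of 0.81 in Adipfl/fl and 0.79 in Adipfl/flpVilli-CreT. Over all 4736 genes compared, 11.5% were higher and 42.5% lower (23.1% and 20.5% relative to the median gene). Epcam, an epithelial adhesion gene, stood at 7111 and 6714 CPM against 4213 and 3875 CPM. Dsp, which encodes desmoplakin of the desmosome, stood at 1308 and 1100 CPM against 446 and 391 CPM. Both stood above list B enterocytes in each library, as did Cdh1, Cldn3, Cldn7, Cldn23, Ocln, Tjp1, F11r, Jup and Dsg2. Cldn15, which encodes a sodium-permeable claudin, was lower, at 152 and 212 CPM against 294 and 364 CPM. Of 15 brush border cytoskeleton genes, 2 were higher (Eps8 and Myo15b), near the share of all genes, and 4 lower (5 and 1 relative to the median gene). Their median was -0.07 and -0.13, above the -0.53 and -0.54 of all genes. Vil1, which encodes the actin bundler villin and whose promoter drives the Cre, stood at 1396 and 1507 CPM against 2129 and 2256 CPM.

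Immediate early genes and heat shock genes followed, with 7 of 15 higher and 1 lower (12 and 1 relative to the median gene) and a median of 0.69 and 0.61. The shares over all genes were 11.5% higher and 42.5% lower (23.1% and 20.5% relative to the median gene). Atf3, a stress-induced transcription factor gene, stood at 558 CPM in Adipfl/fl members and 686 CPM in Adipfl/flpVilli-CreT members against 68.4 and 113 CPM. Jun, an AP-1 subunit gene, stood at 1479 and 1402 CPM against 678 and 707 CPM. Fosb, Fosl2, Btg2, Dusp1 and Dnajb1 passed with them, and Hspa8, which encodes a chaperone, stood lower at 66.2 and 55.1 CPM against 180 and 153 CPM. Such genes can also be induced while tissue is dissociated, and the part of dissociation in these levels was not tested. Of 6 genes of the EGF receptor family and its regulators, 2 were higher, Egfr and the feedback inhibitor gene Errfi1, and 0 lower (5 and 0 relative to the median gene).

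Of 25 transcription factor genes, 7 were higher and 10 lower, against 11.5% and 42.5% of all genes (8 and 8 relative to the median gene, against 23.1% and 20.5%), with a median of -0.25 and -0.34. The share lower was near that of all genes. Prdm1 stood at 190 CPM in Adipfl/fl members and 198 CPM in Adipfl/flpVilli-CreT members against 14.9 and 22.6 CPM, a ratio of 12.7 (9.43 to 17.5) and 8.75 (7.24 to 10.7). Klf6 stood at 1178 and 1420 CPM against 275 and 427 CPM. Maf stood at 154 and 131 CPM against 1032 and 928 CPM, a ratio of 0.149 (0.131 to 0.170) and 0.141 (0.129 to 0.154). Prdm1 and Maf thus stood apart from list B enterocytes in opposite directions in each library. The paralogs Hnf4a and Hnf4g, nuclear receptors of enterocyte identity, also parted. Hnf4a stood at 422 and 430 CPM against 242 and 260 CPM, and Hnf4g at 53.0 and 58.5 CPM against 335 and 316 CPM. Gata4, a factor of the proximal small intestine, stood at 58.4 and 64.5 CPM against 57.1 and 64.6 CPM.

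Compared with list B enterocytes, immune signal genes of enterocytes lay near the median gene. Of 21 measured, 4 were higher and 11 lower (6 and 5 relative to the median gene), with a median of -0.68 and -0.66. Those counts were near the shares of all genes, 11.5% higher and 42.5% lower (23.1% and 20.5% relative to the median gene). The higher genes were the oxidase gene Duox2, its maturation factor gene Duoxa2, the checkpoint ligand gene Cd274 and the cytokine gene Il15. Duox2, whose product makes hydrogen peroxide at the cell surface, stood at 192 CPM in Adipfl/fl members and 331 CPM in Adipfl/flpVilli-CreT members against 17.3 and 39.5 CPM. Villus bottom and antimicrobial genes were lower, with 0 of 9 higher and 7 lower on both scales and a median of -1.71 and -1.69. Reg3b, a secreted antimicrobial lectin gene, stood at 3437 and 2147 CPM against 8158 and 8876 CPM. Pigr, which encodes the receptor that carries immunoglobulin A across the epithelium, stood at 536 and 796 CPM against 1402 and 1946 CPM.

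**Figure D4:**
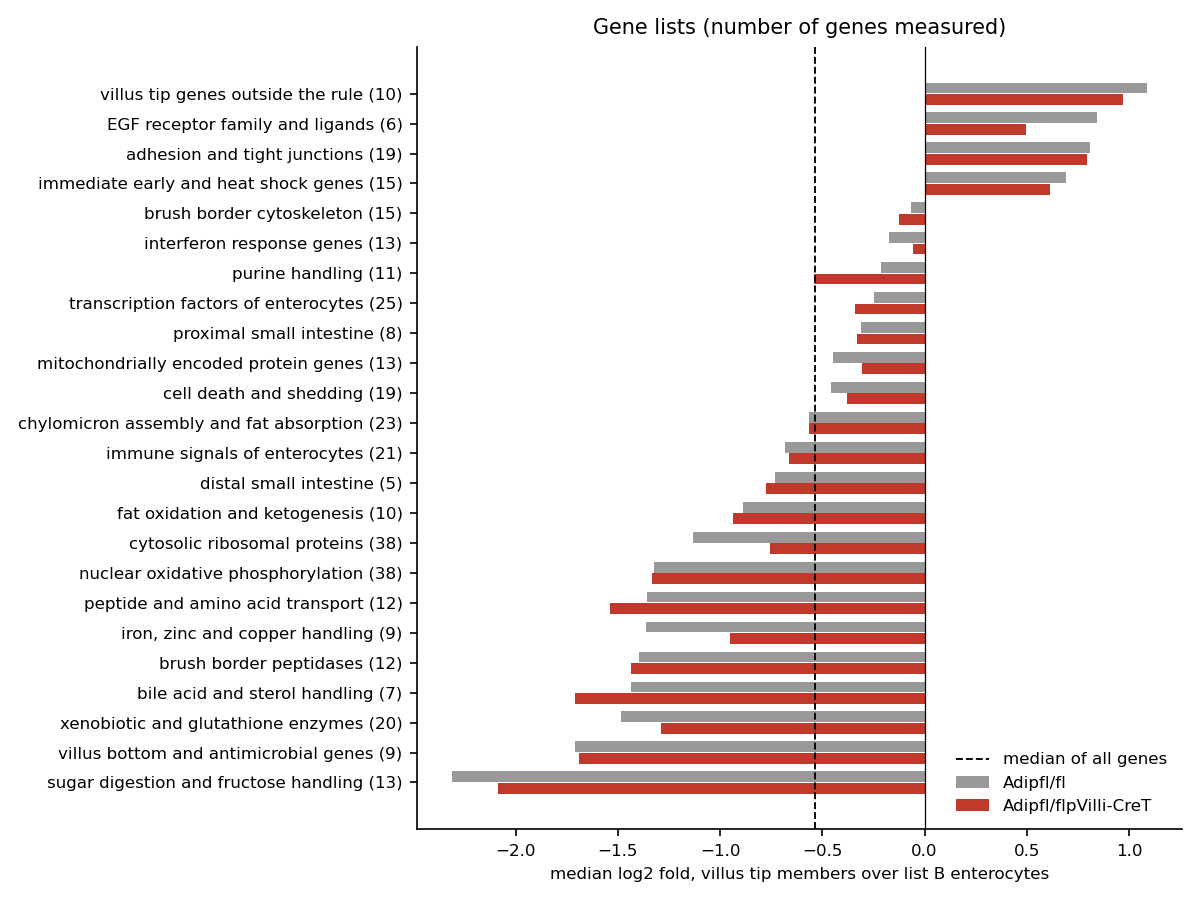
Median log2 fold of the members over list B enterocytes for 24 gene lists, with the number of genes measured in brackets, 1 bar per library and a dashed line at the median of all genes compared. Adhesion genes have a median of 0.81 and 0.79 and sugar digestion genes of -2.31 and -2.08, where the median of all genes was -0.53 and -0.54.

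Genes of nutrient digestion and uptake were lower in the members than in list B enterocytes. Of all 4736 genes compared, 11.5% were higher and 42.5% lower (23.1% and 20.5% relative to the median gene). All 13 measured sugar digestion and fructose handling genes were lower (11 relative to the median gene), with a median of -2.31 in Adipfl/fl and -2.08 in Adipfl/flpVilli-CreT. Sis, which encodes sucrase-isomaltase, stood at 241 and 387 CPM against 2368 and 3034 CPM. Slc5a1, which encodes the sodium-glucose cotransporter SGLT1, stood at 549 and 852 CPM against 2473 and 3614 CPM. Both were lower by more than 4-fold in each library. Of the brush border peptidase list, which also holds Tm4sf20, 0 of 12 genes were higher and 10 lower (1 and 7 relative to the median gene), with a median of -1.40 and -1.44. Of peptide and amino acid transporter genes, 0 of 12 were higher and 7 lower on both scales, with a median of -1.36 and -1.54. Transporters and peptidases thus lay below the median of all genes in both libraries. Of iron, zinc and copper genes, 0 of 9 were higher and 6 lower (0 and 4), with a median of -1.36 and -0.95. Of bile acid and sterol genes, 0 of 7 were higher and 6 lower (0 and 5), with a median of -1.43 and -1.71. The median of each of these groups thus lay below that of all genes in both libraries. Of xenobiotic and glutathione genes, 1 of 20 was higher, the alcohol dehydrogenase gene Adh6a, and 15 were lower (1 and 10), with a median of -1.48 and -1.29. Compared with list A enterocytes, 16.4% of all genes were higher and 57.7% lower (34% and 34.3% relative to the median gene). There sugar genes were higher in 1 and lower in 12 of 14 (1 and 9). The peptidase list was higher in 2 and lower in 6 of 12 (4 and 1), and bile acid and sterol genes in 1 and 6 of 9 (2 and 2).

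Compared with list B enterocytes, chylomicron and purine handling genes lay near the background of all genes. Of all genes 11.5% were higher and 42.5% lower, at a median of -0.53 in Adipfl/fl and -0.54 in Adipfl/flpVilli-CreT. Of 23 genes of chylomicron assembly and fat absorption, 3 were higher, Apoa4, Apob and Dgat2, and 11 lower (8 and 7 relative to the median gene), with a median of -0.57 in both libraries. Apob, the structural protein gene of chylomicrons, stood at 7617 CPM in Adipfl/fl members and 6545 CPM in Adipfl/flpVilli-CreT members against 4404 and 4176 CPM. Fabp1 stood at 695 and 572 CPM against 3891 and 3431 CPM. Apoa4 and Apob thus parted from Fabp1, which acts earlier in fat uptake. Of fat oxidation and ketogenesis genes, 0 of 10 were higher and 8 lower (0 and 4), with a median of -0.89 and -0.94. Of 11 purine handling genes outside the rule, 2 were higher and 5 lower (3 and 2), with a median of -0.21 and -0.54. The higher purine genes were the surface nucleotide hydrolases Enpp3, at 1198 and 1061 CPM against 337 and 363 CPM, and Entpd8, at 565 and 620 CPM against 243 and 285 CPM. Xdh, which encodes xanthine dehydrogenase, which forms urate late in purine breakdown, stood at 486 and 433 CPM against 890 and 866 CPM. Compared with list A enterocytes, 9 of 23 chylomicron genes were higher and 7 lower (14 and 3 relative to the median gene). The shares of all genes there were 16.4% and 57.7% (34% and 34.3%). Compared with list D enterocytes, 5 of 23 were higher and 10 lower (10 and 3), where the shares of all genes were 13% and 53.7% (29% and 28.3%).

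Housekeeping groups differed from each other in their counts against list B enterocytes. All 38 nuclear genes of oxidative phosphorylation were lower (28 relative to the median gene), where 42.5% of all genes were lower (20.5% relative to the median gene), with a median of -1.32 in Adipfl/fl and -1.33 in Adipfl/flpVilli-CreT. Cytosolic ribosomal protein genes were lower in 29 of 38 in CPM, with a median of -1.13 and -0.76, but in only 3 of 38 relative to the median gene, a smaller share than the 20.5% of all genes on that scale. Among barcodes under 10% mitochondrial UMIs, scored anew, which left 18 and 49 members, the ribosomal median was 1.44 and 1.52, in the opposite direction. Of 13 mitochondrially encoded protein genes, 0 were higher and 1 lower (0 and 0), with a median of -0.45 and -0.31, above the -0.53 and -0.54 of all genes. The nuclear and the mitochondrially encoded genes of the respiratory chain thus had different medians in the members, at a mitochondrial share that the rule holds under 25%.

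The members stood further from the early enterocytes of list A. Here 944 of 5755 genes (16.4%) were higher in the members and 3320 (57.7%) lower, and relative to the median gene, whose log2 fold was -1.03 and -1.0, 1956 (34%) and 1976 (34.3%) genes passed. Clca4a, a gene of the CLCA family, stood at 6924 CPM in Adipfl/fl members and 6638 CPM in Adipfl/flpVilli-CreT members against 32.5 and 78.5 CPM in list A enterocytes. Cldn4, Gprc5a and Marcksl1 were in this rank too, with Cldn4 at 8.45 and 26.7 CPM in list A enterocytes. Pycard, which encodes the inflammasome adaptor ASC, stood at 10.8 and 15.3 CPM in the members against 947 and 949 CPM. The members thus held nearly none of the Pycard RNA of early enterocytes. Gpx1, a glutathione peroxidase gene, stood at 7.23 and 9.83 CPM against 647 and 587 CPM, and Rps4x, a ribosomal protein gene, at 13.9 and 23.6 CPM against 1321 and 1254 CPM.

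Compared with list D enterocytes, 686 of 5280 genes (13%) were higher in the members and 2837 (53.7%) lower, and relative to the median gene, at -0.83 and -0.78, 1529 (29%) and 1496 (28.3%) genes passed. In opposite directions, 0 genes passed against list A and 2 (0.0379%), Tgm2 and Gadd45g, against list D enterocytes, the latter named after its values were seen. Cldn4, Acsl3, Utp14b, Gprc5a and S100a6 were among the 6 named higher genes, and all of these were also among the 12 genes with the largest folds over list B enterocytes. Cldn4 stood at 38.7 CPM in Adipfl/fl and 70.5 CPM in Adipfl/flpVilli-CreT list D enterocytes. Maob, Gsta1, Acaa2, Nlrp6, Reg3a and Gpx1 were lowest. Nlrp6 stood at 10.2 and 11.9 CPM in the members against 344 and 328 CPM, and Reg3a, an antimicrobial lectin gene, at 9.63 and 10.8 CPM against 388 and 284 CPM. Depth differed beside these comparisons, with a median of 16344 and 16092 UMIs per list A enterocyte, 5122.5 and 5175 per list D enterocyte and 3826 and 3763 per list B enterocyte, and its part was not tested.

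Members took a larger share of the scored barcodes in Adipfl/flpVilli-CreT. The share was 21.1% in Adipfl/fl (exact Clopper-Pearson 95% interval 19.3 to 23.0) and 31.0% in Adipfl/flpVilli-CreT (29.4 to 32.5), a ratio of 1.47 (1.31 to 1.65). Members were 13.2% of the 3069 and 19.8% of the 5555 barcodes that passed the minimum of 500 genes and the mitochondrial limit, a ratio of 1.51 (1.34 to 1.69). Of all 9791 and 11838 barcodes they were 4.13% and 9.31%, a ratio of 2.26 (2.01 to 2.54). The direction was the same over each denominator, and its size was larger over all barcodes, of which a smaller part passed the filter in Adipfl/fl. Within bands of mitochondrial share the list C score was highest in 24.1% of Adipfl/fl and 30.8% of Adipfl/flpVilli-CreT barcodes at 10 to 15%, in 30.8% and 39.7% at 15 to 20% and in 22.4% and 37.3% at 20 to 25%. Above the limit the order was kept, with 14.7% and 23.1% at 25 to 50%. Below 10% only 6 of 331 and 18 of 646 barcodes scored highest for list C, 1.81% and 2.79%. Outside the members the list C genes were also higher in Adipfl/flpVilli-CreT. They summed to 608 and 1064 CPM in list B, 74.8 and 199 CPM in list A and 300 and 544 CPM in list D enterocytes. The part of free RNA in the shares was not tested. Genotype, pool, dissociation and library cannot be told apart in this design, so the shares compare 2 libraries.

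Within the members, 177 of 3877 genes (4.57%) were at least 1.5-fold higher in Adipfl/flpVilli-CreT and 115 (2.97%) lower, around a median log2 fold of 0.03. The balance turned to 27 higher and 30 lower at a minimum of 100 CPM. It was 131 and 124 with members scored against the mean of their own library. With no minimum the counts were 1802 and 5554. There a count of 0 was set to 3 UMIs, 1.81 CPM in Adipfl/fl and 0.686 CPM in Adipfl/flpVilli-CreT. A gene with 0 UMIs in Adipfl/fl and few in Adipfl/flpVilli-CreT could thus count as lower, so these counts show no balance between the libraries. In list B enterocytes the count at the main setting was 124 of 4966 (2.5%) higher and 103 (2.07%) lower. The UMIs of list C chose the members in both libraries but not by genotype, and without replicates the counts remain a description.

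Mt1, which encodes the zinc- and copper-binding protein metallothionein 1, differed most among genes carried by many cells. It had 33 UMIs in Adipfl/fl members and 6509 in Adipfl/flpVilli-CreT members, or 19.9 and 1489 CPM, a ratio of 74.9 (53.3 to 109). At least 1 UMI was found in 30 Adipfl/fl members (7.43%) and 970 Adipfl/flpVilli-CreT members (88.0%), and the richest barcode held 63 UMIs. The difference was thus spread over most of the members of the Adipfl/flpVilli-CreT library. It was present in the other classes at a smaller ratio, from 109 to 1836 CPM in list B, 466 to 2625 CPM in list D and 885 to 3196 CPM in list A enterocytes. In the barcodes with a Cd3e or Cd3g UMI it stood at 193 and 1548 CPM, and the part of free RNA in the members' values was not tested. Mt2, the neighbouring metallothionein gene, had only 6 and 14 UMIs in the members.

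Other genes higher in Adipfl/flpVilli-CreT members had smaller ratios. mt-Nd3, a mitochondrially encoded subunit of complex I, stood at 454 and 1211 CPM, a ratio of 2.67 (2.47 to 2.88), and was also higher in list B (log2 fold 1.36), list A (1.33) and list D enterocytes (1.25). Sgk1, a kinase gene of sodium transport, stood at 227 and 481 CPM, a ratio of 2.12 (1.90 to 2.37). Duoxa2 stood at 95.7 and 201 CPM, a ratio of 2.10 (1.77 to 2.50), and Duox2 at 192 and 331 CPM, a ratio of 1.73. The oxidase and its maturation factor were thus both higher, by a factor near 2. Tgm2, which encodes a transglutaminase, stood at 22.9 and 55.8 CPM, a ratio of 2.44 (1.73 to 3.53), Clic5, a chloride channel family gene of actin-rich membranes, at 53.0 and 104 CPM, and the apolipoprotein L gene Apol10a at 59.0 and 113 CPM. At the mitochondrial limit of 10%, which left 18 and 49 members, the Apol10a log2 fold turned to -1.35 (-1.64 to -1.06). The goblet cell genes Spink4, at 16.9 and 58.1 CPM, and Fcgbp, at 53.0 and 106 CPM, were in this rank beside a goblet marker sum of 450 CPM in Adipfl/fl members and 1176 CPM in Adipfl/flpVilli-CreT members. All 7 goblet markers had UMIs in each library, Zg16 most, at 168 and 444 CPM, and the same sum was 418 and 987 CPM in list B enterocytes. The part of goblet cell RNA in these values was not tested.

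The plasma cell genes Jchain, Igkc and Igha, which encode antibody chains, also ranked highest by ratio, but the same single barcode of Adipfl/flpVilli-CreT carried all 3. This barcode had 10187 UMIs, of which 1 was on list C and 0 on the other lists, so that it was a member by 1 UMI. It held 4295 of the 4427 Igkc UMIs (97.0%), 1377 of the 1428 Igha UMIs (96.4%) and 851 of the 871 Jchain UMIs (97.7%) of the members of that library. Without this barcode the ratio was 1.26 for Igkc (0.876 to 1.84), 0.971 for Igha (0.569 to 1.72) and 2.54 for Jchain (0.753 to 13.3), so that every interval spanned 1 and the direction of Igha turned. The summed plasma and B cell markers were 38.5 CPM in Adipfl/fl and 1542 CPM in Adipfl/flpVilli-CreT members.

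Among genes lower in Adipfl/flpVilli-CreT members, Irs2, which encodes an insulin receptor substrate, stood at 75.9 CPM in Adipfl/fl and 26.3 CPM in Adipfl/flpVilli-CreT, a ratio of 0.347 (0.267 to 0.450). Clec2d, a lectin-like receptor gene, stood at 201 and 73.4 CPM, and Slc17a4, an organic anion transporter gene, at 251 and 106 CPM. All 3 were also lower in list B enterocytes, with log2 folds of -1.64, -0.93 and -1.06. Txnip, which restrains glucose uptake, stood at 269 and 154 CPM and Tm4sf4, a tetraspanin family gene, at 609 and 341 CPM. Their log2 folds were -0.04 and -0.05 in list B and -0.21 and -0.88 in list D enterocytes. Acta1, the skeletal muscle actin gene, stood at 138 and 37.3 CPM, a ratio of 0.270 (0.220 to 0.332). Tm4sf20, the interferon-induced gene Rsad2, Crebrf, Anxa5, the ubiquitin ligase gene Fbxo32 and the gene entry Mir6236 made up the rest, at ratios from 0.462 to 0.575. The Rsad2 ratio was 0.493, and 0.666 without the 1 Adipfl/fl barcode that held 44 of its 167 UMIs in that library. At the mitochondrial limit of 10%, which left 18 and 49 members, the Tm4sf4 log2 fold turned to 1.65 (0.79 to 2.64). The folds of Irs2, Anxa5 and Fbxo32 turned there too, with intervals that spanned 0.

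**Figure D5:**
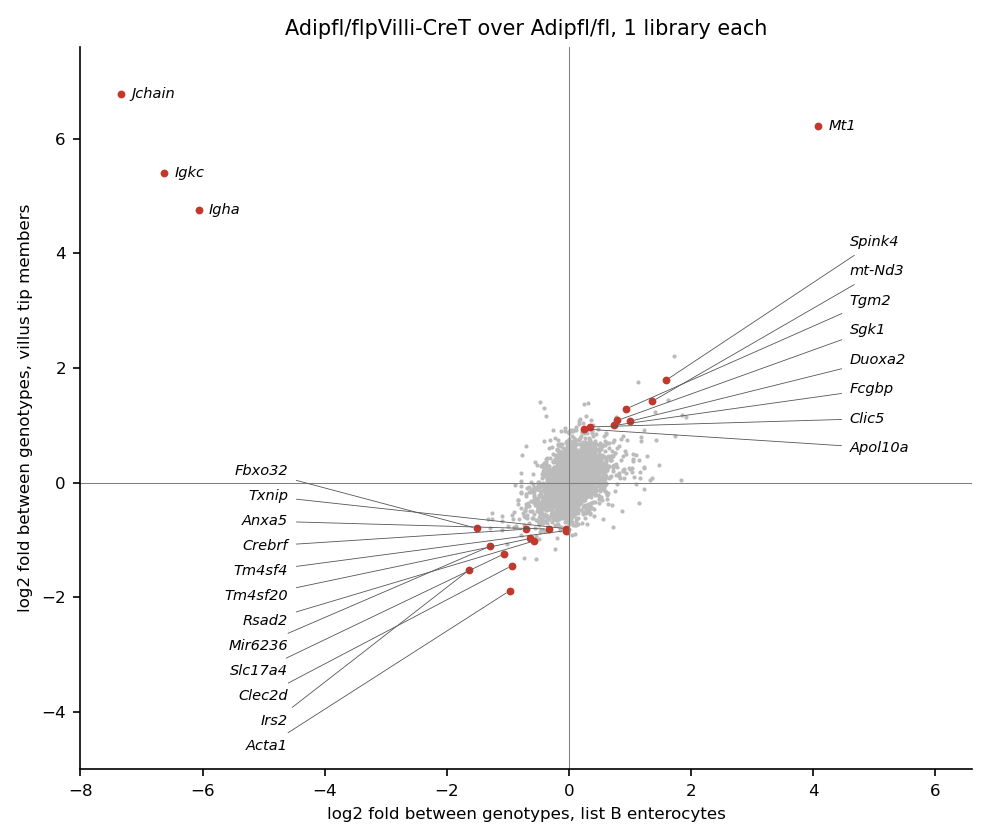
Log2 fold of Adipfl/flpVilli-CreT over Adipfl/fl in list B enterocytes (horizontal) and in the members (vertical), 1 point per gene, with the named genes labelled in red and no error bars. Mt1 lies far to the upper right, with log2 folds of 4.08 and 6.23, and Jchain, Igkc and Igha, which rest on 1 barcode in the members, lie to the upper left.

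Few list genes differed between the genotypes in the members, where 4.57% of the 3877 genes measured were higher and 2.97% lower. Reg3b stood at 3437 CPM in Adipfl/fl and 2147 CPM in Adipfl/flpVilli-CreT members, a ratio of 0.625 (0.604 to 0.646), and Reg3g at 2368 and 1540 CPM, a ratio of 0.650. Reads of these close paralogs can be split by the counting. Lypd8 and Mt1 of the same list were higher, so 2 of 7 measured were higher and 2 lower. Of sugar genes, 3 of 9 were higher and 0 lower, Sis at a ratio of 1.61, Slc5a1 at 1.55 and Pck1, a gluconeogenesis gene, at 1.55. Anpep stood at 709 and 1089 CPM, a ratio of 1.53, and was the 1 higher gene of 12 in the brush border peptidase list, where the 1 lower gene was Tm4sf20, which encodes no peptidase. Anpep and the sugar genes belong to groups that stood below list B enterocytes in the members. Of 6 bile acid and sterol genes, 3 were lower and 0 higher, Abcg8, a sterol exporter gene, at 113 and 70.9 CPM, Abcc2 at 60.8 and 39.1 CPM and Abca1 at 24.1 and 16.01 CPM, with a median log2 fold of -0.45. The interval of the Abca1 ratio of 0.6647 spanned 1 (0.4445 to 1.006). Ribosomal protein genes were higher in 6 of 35 and lower in 0, at a median of 0.23. Immune signal genes were higher in 3 of 20 (H2-Eb1, Duox2, Duoxa2) and lower in 3 (Btnl4, Il15, H2-T3). The transcription factor, adhesion, brush border cytoskeleton, interferon and EGF receptor family lists had 0 genes past 1.5-fold in either direction, of 24, 19, 15, 13 and 6 measured. For the remaining lists 1 or 2 genes passed, or none. For the chylomicron genes, 0 of 22 were higher and 1, Abcg8, was lower, at a median of -0.08.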

How the data were processed

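Cells of small intestinal epithelium were captured with a 10x 3′ V3 kit, 1 library per genotype. The authors converted reads with bcl2fastq 5.0.1, and Cell Ranger 7.0.0 per the methods (7.1.0 in the file headers) aligned them to mm10 and counted UMIs. The deposited values are raw UMI counts per gene for barcodes that the authors had called as cells, without normalization and before their filter on genes and mitochondrial share. The filter stated in the methods leaves fewer barcodes here than the study retained. Of 55357 features, 901 shared a symbol and were summed by symbol.

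Members and gene lists were chosen with earlier results of these data known. UMIs were summed over the barcodes of a class and scaled to 1000000 (CPM). A gene was called at 1.5-fold with at least 20 CPM in the higher group, and between classes the same way in both libraries, with 0 counts set to 3 UMIs. The 26 rule and filter genes were left out of these counts. Genes were named from 25 gene lists, the rule lists, Adipoq, Adipor1, Adipor2 and Vil1, and by the largest folds (12 per direction between genotypes and over list B, 6 over lists A and D, with at least 50 CPM). Intervals are exact, at 95%, and cover counting error only. Doublets were not removed in the main count, and an alternative left out the 8% of barcodes with most UMIs. Other alternatives changed the denominators, filters, lists, fold and CPM minimum. Python 3.11.15, numpy 2.4.6, scipy 1.17.1 and pandas 2.3.3 were used, and the calculation was checked on simulated counts. A few of the named genes are not reported here.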

Additional observations from a re-analysis of the deposited data

Results flagged for a closer look

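The antibody genes Jchain, Igkc and Igha were higher in Adipfl/flpVilli-CreT than in Adipfl/fl among the members and lower among list B and list D enterocytes, a difference that was not tested. The log2 fold of Jchain was -7.33 in list B and -1.58 in list D enterocytes, that of Igkc -6.63 and -1.58, and that of Igha -6.06 and -1.53. In list A enterocytes they were higher, as in the members, with log2 folds of 1.08, 1.03 and 0.59. In the members 1 barcode of Adipfl/flpVilli-CreT held 96.4% or more of the UMIs of each gene in that library, and without it the Igha fold turned to -0.04. Among Adipfl/fl list B enterocytes, Jchain UMIs were found in only 6 barcodes (0.84%), Igha UMIs in 29 (4.06%) and Igkc UMIs in 55 (7.70%). Summed B and plasma cell markers stood at 3405 CPM in Adipfl/fl and 36.7 CPM in Adipfl/flpVilli-CreT list B enterocytes.

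Acta1 was lower in Adipfl/flpVilli-CreT among the members, at a log2 fold of -1.89, and among list B enterocytes (-0.97), and higher in list A (0.70) and list D enterocytes (2.06), a difference that was also not tested. The list A ratio of 1.63 had an interval that spanned 1 (0.948 to 2.91), and the list D ratio of 4.16 one that did not (2.20 to 8.68). The 6 fibroblast and smooth muscle markers moved the same way in both classes, from 1 UMI in Adipfl/fl to 401 in Adipfl/flpVilli-CreT (0.148 and 34.7 CPM) in list A, led by Col3a1, and from 8 to 363 (2.79 and 76.2 CPM) in list D enterocytes, led by Acta2 in Adipfl/flpVilli-CreT. In that library 1 of the 6 was at 0 in each class, and their part in the Acta1 values was not tested.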

How the results depend on the processing

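The ratio of the member shares stayed between 1.34 and 1.62 under every alternative except the denominator of all barcodes, where it was 2.26. Under the mitochondrial limit of 10% its interval spanned 1 (0.798 to 2.54). The shares in Adipfl/fl and Adipfl/flpVilli-CreT were 13.2% and 19.8% of barcodes past the gene and mitochondrial filters, 4.13% and 9.31% of all barcodes, 5.44% and 7.59% at a mitochondrial limit of 10%, 17.6% and 27.1% at a minimum of 1000 genes, and 18.0% and 25.1% with a list C score at least 2 times the next. With a mitochondrial limit of 50% they were 17.7% and 28.6% and with no limit 17.5% and 28.3%, settings chosen after seeing the data.

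Counts of genes followed their thresholds. The 292 genes between genotypes became 39 at 2-fold, 57 at a minimum of 100 CPM, 7356 with no minimum, 2459 at the mitochondrial limit of 10% and 169 at 50%, and lay from 255 to 360 otherwise. The 2562 genes against list B enterocytes became 1502 at 2-fold, 806 at 100 CPM, 6775 with no minimum and 1379 at the 10% limit. The 4264 against list A became 1500, 10543 and 1387 at 100 CPM, no minimum and the 10% limit, and the 3523 against list D 1167, 8434 and 1084.

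The 10% limit, which left 18 and 49 members, reversed the genotype log2 fold of Jchain (-1.16), Igkc (-1.52), Igha (-1.35), Apol10a (-1.35), Irs2 (0.51), Tm4sf4 (1.65), Anxa5 (0.45) and Fbxo32 (0.66). It also reversed the smaller fold of Angptl4 over list B (0.063) and the medians over list B of the EGF receptor family in Adipfl/fl (-0.042) and of the ribosomal genes (1.44 and 1.52). The Igha fold was also reversed with at least 2 list C UMIs (-0.075), with thinning before scoring (-0.25) and without Ada in list C (-0.052). It was reversed too without the 1 Adipfl/flpVilli-CreT barcode richest in it (-0.043), an alternative chosen after seeing the data. The intervals of these last 4 Igha values spanned 0, as did those of Irs2, Anxa5, Fbxo32 and Angptl4 at the 10% limit. The EGF receptor family median has no counting interval. A band around it as wide on each side as the difference between the libraries, -0.26 to 0.18, held 0. The cause of these reversals was not tested. Of the values for single genes, 1108 stayed within their interval, 202 moved and 13 reversed, and of list medians 704 stayed within the difference between the libraries (or 0.1 where that was smaller), 189 moved and 3 reversed. No paired analysis was possible because each genotype had 1 library. With 1 library per genotype the spread between animals is unknown, and genes under 20 CPM rest on few UMIs in the Adipfl/fl members.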

Other observations

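Cell death and shedding genes had no common direction in the members. Of 19 measured against list B enterocytes, 3 were higher and 8 lower (6 and 7 relative to the median gene), with a median log2 fold of -0.46 in Adipfl/fl and -0.38 in Adipfl/flpVilli-CreT. Over all genes the shares were 11.5% higher and 42.5% lower, so these counts lay near the background. Mcl1, which encodes a survival protein of the BCL2 family, stood at 629 CPM in Adipfl/fl members and 766 CPM in Adipfl/flpVilli-CreT members against 221 and 270 CPM. Casp6, a caspase gene, stood at 4.82 and 13.0 CPM against 72.3 and 88.3 CPM. The members thus held less RNA of Casp6 and more of Mcl1 in each library. Tnfrsf1a and Tgm2 were the other higher genes. Between the genotypes, 2 of 12 were higher in Adipfl/flpVilli-CreT members and 0 lower, against 4.57% and 2.97% of all genes.

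Of 13 interferon response genes, 1 was higher than in list B enterocytes and 4 lower (4 and 0 relative to the median gene), with a median of -0.17 and -0.06. The higher gene was Isg15, a ubiquitin-like modifier gene, at 561 and 542 CPM against 221 and 238 CPM. Proximal small intestine genes were higher in 2 of 8 and lower in 4 (3 and 2), with a median of -0.31 and -0.33, and distal genes were higher in 0 of 5 and lower in 3 (0 and 1), with a median of -0.73 and -0.77. Of all genes compared, 11.5% were higher and 42.5% lower (23.1% and 20.5% relative to the median gene). These lists are small, and their counts lay near those shares.

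The rule removed barcodes with a UMI of Cd3e, Cd3g, Tyrobp, Trpm5, Chgb, Olfm4 or Top2a. Its part in the low sums of T cell, myeloid, tuft, enteroendocrine, stem and cycling cell markers in the members was not tested. Summed levels were 60.2 and 57.9 CPM for T cell markers, led by Ccl5, 120 and 134 CPM for enteroendocrine markers, led by Sct, 48.2 and 33.9 CPM for stem cell markers, 28.9 and 32.7 CPM for cycling markers, 34.3 and 23.1 CPM for myeloid markers, 11.4 and 25.2 CPM for Paneth cell markers and 8.43 and 6.4 CPM for tuft cell markers. Fibroblast and smooth muscle markers had 0 and 1 UMIs, endothelial markers 8 and 4, and erythroid markers 0 and 0. The genes of list A summed to 353 and 453 CPM, those of list B to 582 and 640 CPM and those of list D to 80.1 and 93.1 CPM, against 17860 and 17900 CPM for list C.

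Mt2 stood at 170 and 103 CPM in list A enterocytes and at 3.61 and 3.20 CPM in the members, so its level was lower in Adipfl/flpVilli-CreT in list A enterocytes, where Mt1 was higher.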
